A study of Mus musculus with 6 samples.

Results

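Translation factors are the proteins that start and extend protein synthesis on the ribosome, and the genes for them were examined in the striatum of mice that overexpress Shank3, a scaffold protein of the excitatory postsynapse. The members were the protein-coding genes of the GENCODE M21 annotation whose symbols begin with Eif1 to Eif6 or with Eef1 or Eef2, apart from the Eif4ebp genes. The table lists 46078 genes, 64 of which fit this description. The 62 whose normalized read counts averaged 10 or more over the 6 libraries were kept. The other 2 were Eif4e1b, with a mean of 0.318, and Eef1akmt3, with a mean of 6.73. By the same minimum, 17605 genes of any kind were tested. The rule uses the symbol and the mean over all libraries, and no difference between the genotypes.

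Striatal tissue was taken from 3 wild-type (WT) and 3 Shank3 transgenic (TG) mice, and 1 RNA sequencing library was made per mouse. All were males aged 12 weeks on the C57BL/6J background, and the TG mice carried an EGFP-Shank3 transgene, whose promoter is not given in the sources used here. The values are read counts scaled by DESeq2 size factors, here called normalized read counts, and between 27689589 and 36647626 counts per library fell on genes. Shank3 had normalized read counts between 26044 and 29891 in TG mice and between 12918 and 13865 in WT mice, which matches the labels. The libraries differed in marker genes of other cell types. The summed counts of 9 choroid plexus markers were 15406, 1885 and 630.0 in TG replicates 1, 2 and 3, against 548 to 900.3 in WT mice, and all 9 were detected. The sum of 10 markers of medium spiny neurons, the defining cells of the striatum, lay between 154427 and 178342 in WT mice. It was 127810, 178339 and 150134 in TG replicates 1, 2 and 3. Of the 10 markers, 9 were lower in TG mice, with a median log2 fold change of -0.14, and 0 had groups without overlap. The sum of 6 markers of cortical excitatory neurons was 40563, 28923 and 39377 in TG replicates 1, 2 and 3. It lay between 33408 and 38539.5 in WT mice, and 3 of these markers were higher and 3 lower in TG mice. The sums of 6 microglial markers were 9299 to 9894 in TG mice and 9997 to 10469 in WT mice. All 6 were lower in TG mice, and 0 passed at an adjusted P value under 0.05. In 3 of the 6 the groups did not overlap, against 10.1% of all genes tested. In bulk tissue, a different number of cells and a different amount of RNA per cell cannot be told apart.

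Initiation begins when eIF2 carries the initiator tRNA to the small ribosomal subunit, with eIF1, eIF1A, eIF3 and eIF5, while the eIF4 factors bind the cap of the mRNA and unwind its leader. In elongation, eEF1A delivers aminoacyl-tRNAs, the eEF1B complex reloads eEF1A with GTP, and eEF2 moves the ribosome along the mRNA. The mTORC1 kinase, on which the study centred, acts on this machinery through the eIF4E-binding proteins, through S6 kinase and eEF2 kinase, and through mRNAs that begin with a 5′ terminal oligopyrimidine (TOP) tract, among which are those for several elongation factors and eIF3 subunits. These are effects on protein activity and on translation, which read counts of mRNA do not measure.

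The start of the transcript is the feature by which TOP mRNAs are known, so the 30 bases around the annotated start (15 on each side, from RefSeq, build GRCm38.p6) are shown for those members of the TOP list that could be matched and for the X- and Y-linked copies of the eIF2 gamma subunit. Capitals mark a run of at least 8 bases that starts with C and holds C and T alone.
Eef1a1 (chr9:78481710-78481739, minus strand): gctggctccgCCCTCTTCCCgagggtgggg
Eef1b2 (chr1:63176816-63176845, plus strand): tggacctgcagttccgccggaagtagccga
Eef2 (chr10:81176616-81176645, plus strand): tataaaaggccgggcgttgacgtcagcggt
Eif3f (chr7:108934400-108934429, plus strand): tctgttctaggCTCTCTCTCTTTCTCggca
Eif4b (chr15:102073758-102073787, plus strand): ggtcttcccgtcggacgccgcgccaccccc
Eif2s3x (chrX:94212637-94212666, minus strand): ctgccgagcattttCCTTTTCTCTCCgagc
Eif2s3y (chrY:1010580-1010609, plus strand): gcggaggccacagccaCTTCCTTCTTTCgt

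Start windows on chromosome 18, where Eif1a and Eif3j2 lie, were left out. Of the 62 members, 50 had a start window among the rest, and 10 of them (20.0%) held such a run on the strand of the gene in at least 1 window. On the other strand 5 members held one. Counted in the same way, by gene and in at least 1 window, 10.8% of all 27025 genes with a window outside chromosome 18 held a run on the strand of the gene. On the other strand 11.9% did. Among the 5 matched members of the TOP list the run was found in Eef1a1 and Eif3f. An annotated start can lie some bases away from the one used in the tissue, so the absence of the letters from a window says nothing about the mRNA.

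The level of a member was compared with that of others as normalized read counts per kb of exon, because longer transcripts yield more reads. On this scale the members spanned a 3254-fold range. Eef1a1, which encodes the eEF1A of most cells, was the highest, with 23630.0 ± 657 (SD, n = 3) in WT and 23135 ± 759.7 (SD, n = 3) in TG mice. Eef1a2, the form known from neurons and muscle, followed with 12125 ± 515 and 11994 ± 689.7 (SD, n = 3 each). Eef2 came next, with 11348 ± 70.1 and 10868 ± 284 (SD, n = 3 each). Per kb of exon, Eef1a2 was above Eef2 and Eef1a1 above both in every library, although Eef1a2 in TG replicate 2 was lower than Eef2 in the WT mice. The initiation factors began lower on this scale. Eif1, which guards the fidelity of the start codon, had a mean of 4257 over all libraries and Eif4a2, an RNA helicase of the cap complex, had 3018. These 5 genes were also among the first 6 when the length of the principal transcript was used in place of all exon bases. The other was the initiation factor Eif4g2, with 27391 by that length, below Eef1a1 alone, against 1999 per kb of exon. Its principal transcript was taken as 742 bases, while its exons hold 10166. With that length the means of Eef1a2 (12059) and Eef2 (11953) were close. The order of these genes within each library therefore depends on the length used.

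**Figure D1:**
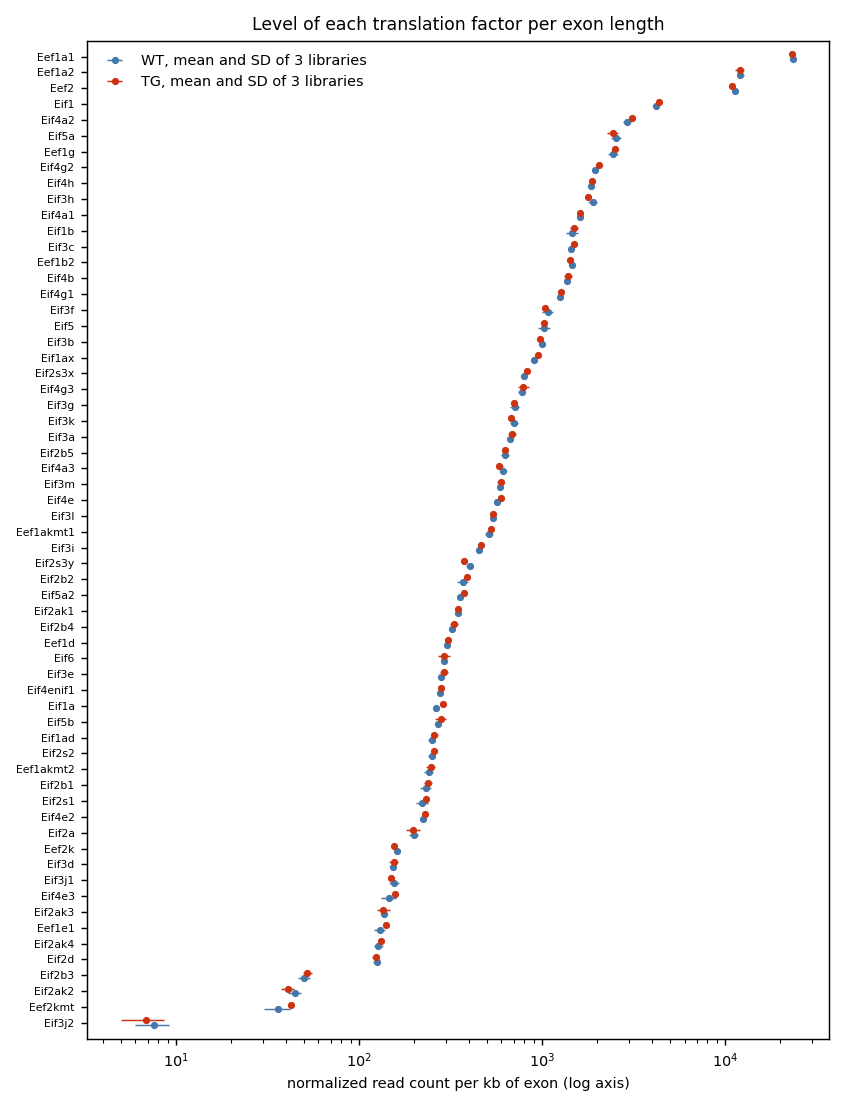
Normalized read counts per kb of exon of the 62 translation factors (log axis), ordered by their mean over all libraries. Points are the means of the 3 WT (blue) and 3 TG (red) libraries and bars their SD. The levels run from Eif3j2 at the bottom (7.18) to Eef1a1 at the top (23382), and the points of WT and TG lie beside each other throughout.

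The low end of the order held regulators and core subunits alike. The eIF2 kinases, which phosphorylate eIF2 alpha under stress, reached a level of 347 (Eif2ak1), 136 (Eif2ak3), 129 (Eif2ak4) and 42.7 (Eif2ak2) per kb. Eif2ak1 thus lay in the middle of the order. Eif2b3, a subunit of the exchange factor of eIF2, had 51.2, and Eef2kmt, a methyltransferase of eEF2, had 39.3. Eif3j2, a second gene for the eIF3 j subunit, had 7.18, against 153 for Eif3j1. The members of the eIF3 complex, which hold the subunits of a single assembly, spread from 153 (Eif3j1) to 1838 (Eif3h) per kb when Eif3j2 is left aside. The exon bases of all annotated transcripts enter this length, so a gene with long rare isoforms has too low a level. Eif3d also shares 43.3% of its exon bases with a gene on the opposite strand, and the library kit does not mark strand.

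Together the 62 genes took 0.974% ± 0.0172 of all counts in WT mice and 0.978% ± 0.00629 in TG mice (SD, n = 3 each). The groups overlapped, with shares of 0.958% to 0.992% in WT and 0.974% to 0.985% in TG mice (two-sided exact permutation test, P = 0.8). Eef1a1, Eef1a2 and Eef2 alone made up 0.387% ± 0.00681 in WT and 0.378% ± 0.00989 in TG mice (SD, n = 3 each, exact permutation test, P = 0.3). The 49 initiation genes had shares of 0.516% ± 0.00789 in WT and 0.529% ± 0.00669 in TG mice (SD, n = 3 each, exact permutation test, P = 0.2), and the 13 elongation genes, eIF5A included, 0.458% ± 0.00929 and 0.449% ± 0.0114 (exact permutation test, P = 0.4). Both sets follow the symbol, so regulators such as the eIF2 kinases and the elongation factor methyltransferases are counted in them. The 95% Wilson interval of a share was at most 0.00738 percentage points wide in any library, which covers counting error only. With 3 mice against 3 the exact test cannot go below P = 0.1.

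The comparison of genotypes asks whether overexpression of Shank3 came with altered mRNA levels of the translation machinery. Differences were tested with limma on log2(normalized read count + 1) over all genes tested, and a fold change on this scale understates that of genes with low counts. No translation factor passed the test. At an adjusted P value under 0.05, 0 of the 62 members were called, where 1 of all 17605 genes tested (0.00568%) was. That 1 gene was Shank3, so the test called nothing beyond the overexpressed gene. The study listed further genes as changed, from DESeq2 P values that it corrected in another way. At an unadjusted P value under 0.05 there were again 0 members, where 4.31% of all genes tested passed (1.98% higher and 2.33% lower in TG mice). The smallest P value of a member was 0.0626 (adjusted P = 0.971 by limma). Recovered whole reads gave 0 members past either threshold by edgeR's quasi-likelihood test, by DESeq2 and by limma-voom. The log2 fold changes of the members lay between -0.16 and 0.24, with quartiles at -0.02 and 0.05 and a median of 0.02. Over all genes tested the quartiles were -0.07 and 0.06 and the median was -0.00177. In TG mice 38 members (61.3%) were higher and 24 lower, against 49.2% of all genes tested that were higher.

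**Figure D2:**
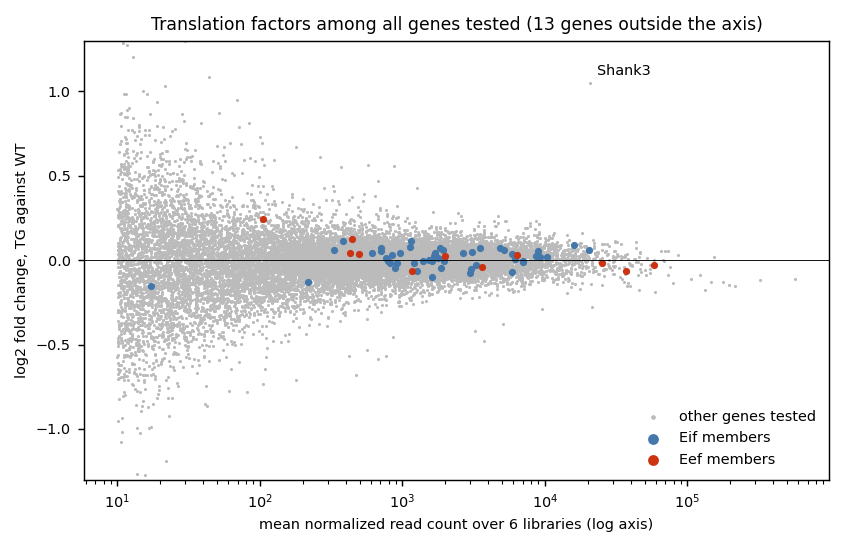
Log2 fold change between TG and WT mice (vertical) against the mean normalized read count over the 6 libraries (horizontal, log axis) for all genes tested (grey), the Eif members (blue) and the Eef members (red). The members lie between -0.16 and 0.24, while Shank3 is at 1.05, and 13 genes fall outside the vertical axis, which ends at 1.3 in both directions.

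The data were precise enough to bound the differences. The 95% limma interval of the fold change lay within 1.2-fold in either direction for 57 of the 62 members (91.9%), where 49.2% of all genes tested had an interval that narrow. The 5 others were Eef1e1, Eif2ak2, Eif3j2, Eif4e3 and Eef2kmt, all among the 7 members with the fewest reads, and Eif3j2 alone had an interval that reached beyond 1.5-fold. A difference of more than 1.2-fold between the groups was seen in 0 members, where 9.09% of all genes tested had one. The members are well expressed, with a median of 1739.6 normalized read counts against 488 for all genes tested, and such genes vary less. Within a genotype, the median SD of the members was 0.06 on the log2 scale, against 0.11 over all genes tested. Among genes with a mean of at least 1000, the median SD was 0.05 for the 44 members and 0.07 for all 6238. The difference was smaller than this SD within a genotype, taken gene by gene, in 41 members.

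**Figure D3:**
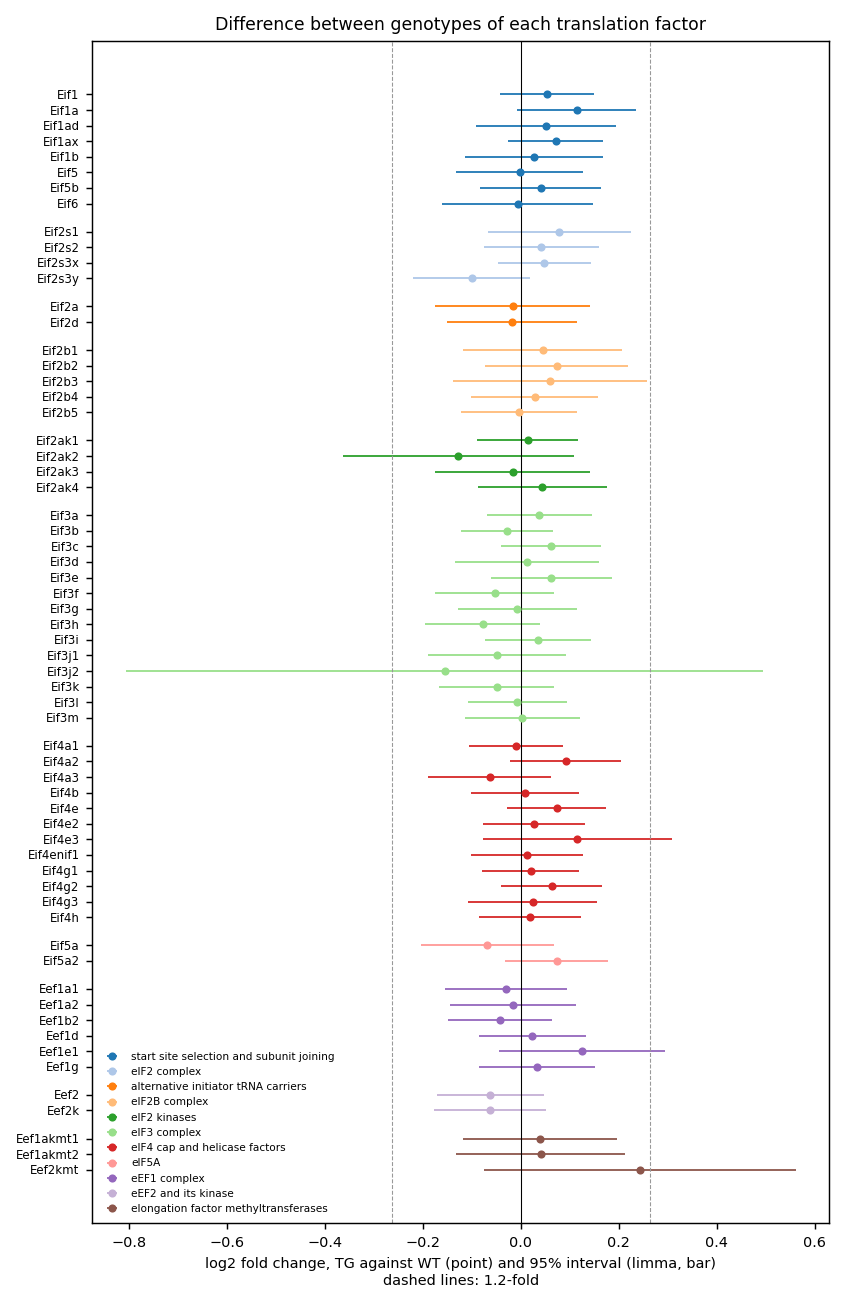
Log2 fold change between TG and WT mice (points) with the 95% limma interval (bars) for the 62 translation factors, grouped and coloured by role. Dashed lines mark 1.2-fold. Every interval includes 0, and 57 lie between the dashed lines.

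The TG and WT ranges were apart in 9 members (14.5%), against 10.1% of all genes tested. In 8 of them (12.9%) the TG values were higher, against 5.06% of all genes tested, and in 1 (1.61%), Eef2, they were lower, against 5.05%. The 8 higher genes were Eif1a, Eif1ax, Eif2s3x, Eif3c, Eif4e, Eif4g2, Eif5a2 and Eef1e1, and their log2 fold changes were between 0.05 (Eif2s3x) and 0.13 (Eef1e1). None of the 9 passed the limma test, and the exact permutation test gave P = 0.1, its smallest value, for each.

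Of the 8 genes listed under start site selection and subunit joining, 6 were higher and 2 lower in TG mice, with a median log2 fold change of 0.05. Eif1ad, at 0.05, is among the 6 and was placed there by its symbol. Eif1a, which encodes one of the eIF1A proteins that help the ribosome scan for the start codon, had the smallest P value of all members. Its normalized read counts were 1139.9, 1065 and 1106 in WT mice and 1228, 1154 and 1202 in TG mice. The lowest TG value lay just above the highest WT value. The log2 fold change was 0.11 (standard error 0.05, 95% interval -0.01 to 0.24, adjusted P = 0.971 by limma), and the unadjusted P value was under 0.05 in 4 of the 16 alternatives, with the adjusted P value at 0.849 or higher in those. Eif1ax, its close relative on chromosome X, had 4896, 4707 and 4646 in WT and 5024, 4903 and 5044 in TG mice. Here too the groups did not overlap, by a margin of only a few counts, and the log2 fold change was 0.07 (standard error 0.04). The mRNAs of the 2 genes are alike, so reads of one can be counted for the other. The remaining genes of the group lay closer to 0, with Eif1 at 0.05, Eif1b at 0.03, the GTPase-activating factor Eif5 at -0.00245 and Eif6, which keeps the large subunit from joining too early, lowest at -0.01.

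The eIF2 complex binds the initiator tRNA and is the target of the stress kinases. Its gamma subunit has an X-linked and a Y-linked gene. Eif2s3x had normalized read counts of 3103, 3025 and 3019 in WT and 3127, 3152 and 3178 in TG mice. Eif2s3y had 1698, 1737 and 1596 in WT and 1547, 1522 and 1623 in TG mice. Eif2s3x was thus a little higher and Eif2s3y a little lower in TG mice, with log2 fold changes of 0.05 (standard error 0.04) and -0.10 (standard error 0.05, adjusted P = 0.971 by limma). The groups overlapped for Eif2s3y but not for Eif2s3x, and Eif2s3y was detected in all 6 males. The alpha and beta subunits, Eif2s1 and Eif2s2, had log2 fold changes of 0.08 and 0.04. Eif2s2 is on the list of mTORC1 signaling genes that the study scored, and its values overlapped, with 1706, 1748 and 1588 in WT and 1708, 1767 and 1712 in TG mice. Eif2a and Eif2d, which can bring the initiator tRNA without eIF2, both had a log2 fold change of -0.02.

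Of the 5 subunits of eIF2B, the exchange factor that reloads eIF2 with GTP, 4 were higher in TG mice and 0 had groups without overlap. The highest was Eif2b2, with a log2 fold change of 0.07, and the lowest Eif2b5, the catalytic subunit, with 1720.2, 1586 and 1577 in WT and 1617, 1586 and 1662 in TG mice. Among the kinases of eIF2 alpha, which answer to heme shortage, double-stranded RNA, unfolded proteins and uncharged tRNA, 2 were higher and 2 lower. Eif2ak2, the kinase PKR, had the lowest log2 fold change (-0.13, standard error 0.11) at normalized read counts of 206, 244 and 234 in WT and 222, 190.0 and 213 in TG mice. These values overlapped. Eif2ak3, the kinase PERK of the endoplasmic reticulum, was at -0.02 and Eif2ak4, the amino acid sensor GCN2, highest at 0.04.

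The eIF3 complex is the largest of the initiation factors and the scaffold on which the others assemble. Of its 14 genes 6 were higher and 8 lower in TG mice, and the median log2 fold change was -0.01. The highest was Eif3e (0.06, standard error 0.06), with 1941, 1882 and 1806 in WT and 1907, 2086 and 1888 in TG mice, where TG replicate 2 stood out. Eif3c was the only subunit without overlap, with 4855, 5128 and 5145 in WT and 5152, 5225 and 5412 in TG mice and a log2 fold change of 0.06. Eif3a, a core subunit on the TSC1 interactor list of the study, was at 0.04 (standard error 0.05). Eif3h was the lowest of the well expressed subunits (-0.08, standard error 0.05), with 3216, 3042 and 2874 in WT and 2851, 2975 and 2821 in TG mice. The lowest of all, Eif3j2, had between 11.2 and 21.6 normalized read counts, and its log2 fold change of -0.16 had a standard error of 0.29.

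The eIF4 factors recognize the cap and open the mRNA, and 10 of their 12 genes were higher in TG mice, with a median log2 fold change of 0.02. Eif4a2, a helicase of the cap complex, had 16465, 15169.5 and 15179 in WT and 16224, 16499 and 17137 in TG mice. WT replicate 1 lay within the TG range, while the other WT mice lay below it. On the log2 scale TG mice were 0.09 above WT mice (SE 0.05, adjusted P = 0.971 by limma). With 1 library left out this difference ran from 0.07 to 0.13. It was largest without WT replicate 1, and there alone the unadjusted P value was under 0.05 (adjusted P = 0.980 by limma). Eif4a1 was even, at -0.01 on the log2 scale (standard error 0.04), with values between 6835 and 7190.1 over all mice. Eif4e, the cap-binding protein that the eIF4E-binding proteins hold in check, had 3561, 3337 and 3358 in WT and 3566, 3637 and 3580.4 in TG mice. WT replicate 1 came within 6 counts of the lowest TG value, and the log2 fold change was 0.07 (standard error 0.05). The scaffolds that join the cap to the ribosome were at 0.02 for both Eif4g1 and Eif4g3. Eif4g2, a relative that lacks the eIF4E binding site, had 20259.8, 20064 and 19324 in WT and 20815, 20272 and 21209 in TG mice, again without overlap, at a log2 fold change of 0.06. Eif4e3 was the highest of the group at 0.12 (standard error 0.09) on at most 409.9 counts, and Eif4a3, the helicase of the exon junction complex, the lowest at -0.06.

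**Figure D4:**
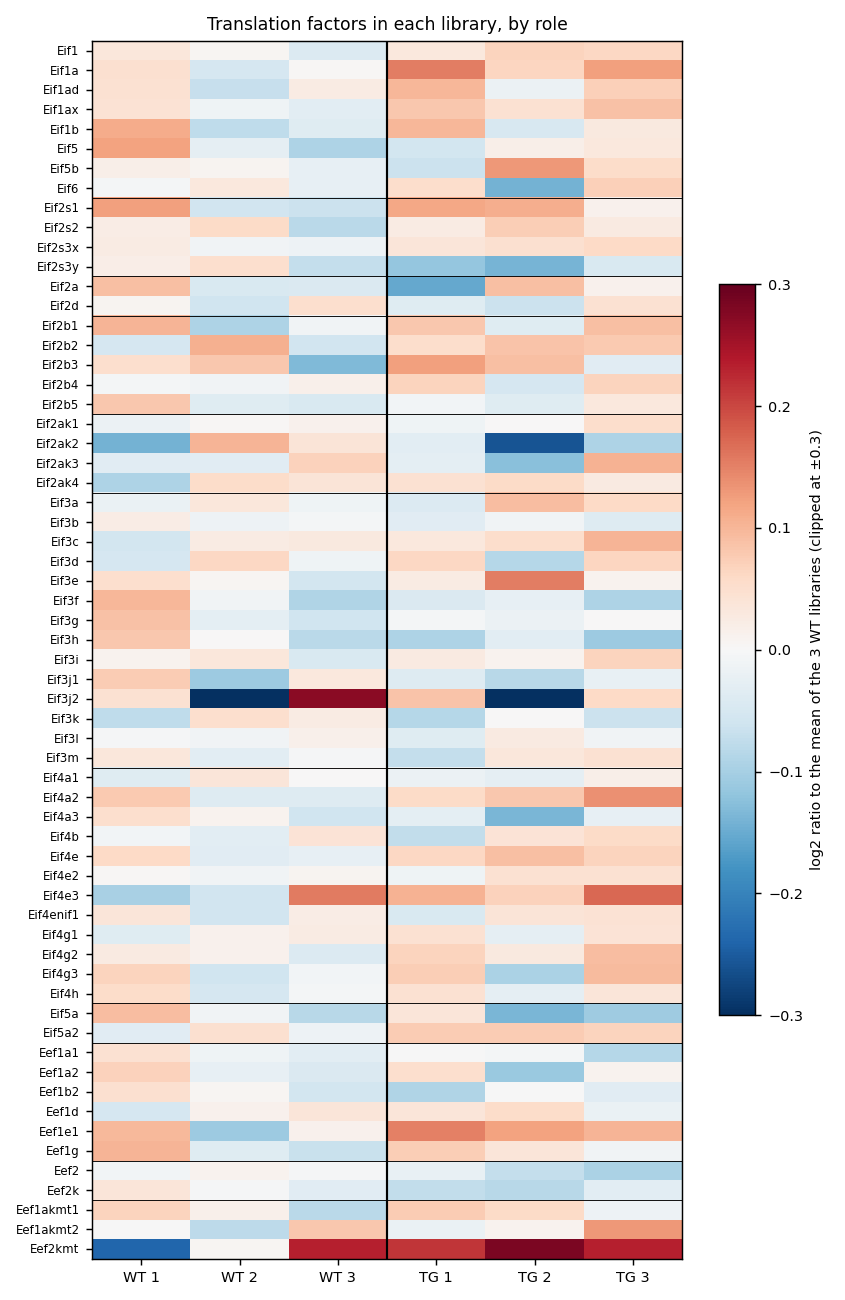
Log2 ratio of each translation factor to the mean of the 3 WT libraries, in the 3 WT and 3 TG libraries (columns), with genes grouped by role (horizontal lines). Colours run from -0.3 (blue) to 0.3 (red) and are clipped there. Most cells are pale, Eif3j2 and Eef2kmt vary most, and the median over the members was 0.03, -0.01 and -0.01 in WT replicates 1, 2 and 3 and 0.03, 0.01 and 0.04 in TG replicates 1, 2 and 3.

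The 3 elongation factors with the most reads, Eef1a1, Eef2 and Eef1a2, had log2 fold changes below 0. Eef2 had normalized read counts of 37531, 37981 and 37649 in WT mice and 37162, 35907 and 35312 in TG mice. All TG values lay under the WT values, which differed little among themselves. The log2 fold change was -0.06 (standard error 0.05, 95% interval -0.17 to 0.05, adjusted P = 0.971 by limma). Eef2k, the kinase that stops eEF2 and is itself under the control of mTORC1 and calcium, had the same log2 fold change of -0.06 (standard error 0.05), with 1231, 1197 and 1173 in WT and 1141, 1133 and 1173 in TG mice. WT replicate 3 and TG replicate 3 met at the same rounded value, so these groups were not apart. Eef1a1 had 60754, 58350.0 and 57624 in WT and 58892, 58639 and 55492 in TG mice, and Eef1a2 had 26495, 24816 and 24496 in WT and 26168, 23391 and 25424 in TG mice. Retrocopies of Eef1a1 in the genome can share its reads. Both genes overlapped between the groups, with log2 fold changes of -0.03 and -0.02 (standard error 0.06 each). Eef1a1, Eef1a2 and Eif4a2 are on the list of Shank3 interactors that the study used, and Eef1a1 is also on its list of TSC2 interactors. Eef2 and Eef1g are on its list of Rhes interactors.

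Of the exchange complex that reloads eEF1A, Eef1b2 was the lowest (-0.04, standard error 0.05), and Eef1d and Eef1g were at 0.02 and 0.03. Eef1e1 joins the tRNA synthetase complex, is on the study's list of mTORC1 signaling genes and was grouped with eEF1 by its symbol. It was the highest of the 6 genes grouped there, with 451, 391 and 425 in WT and 468, 459 and 453 in TG mice. The groups were apart by about 2 counts, and the log2 fold change was 0.13 (standard error 0.08). The eIF5A proteins carry the modified lysine hypusine and help the ribosome past difficult peptide bonds. Eif5a had 6440.0, 5999 and 5698 in WT and 6197, 5492 and 5607 in TG mice, and its log2 fold change was -0.07 (standard error 0.06). Eif5a2 had 1752, 1855 and 1773 in WT and 1890.3, 1891 and 1876 in TG mice, and its log2 fold change was 0.07 (standard error 0.05). The paralogues thus had opposite signs, with overlap between the groups for Eif5a alone. The methyltransferases Eef1akmt1, Eef1akmt2 and Eef2kmt were at 0.04, 0.04 and 0.24. Eef2kmt had the highest log2 fold change of all members, but its values of 81.3, 96.3 and 113 in WT and 112, 117 and 113 in TG mice overlapped (standard error 0.14), and it shares 17.6% of its exon bases with Alg1 on the opposite strand.

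The ratio of a pair of paralogues within a library does not depend on the size factor of the library, and 9 pairs were compared in this way. The 3 WT and 3 TG ratios were apart in 1 pair, Eif2s3x and Eif2s3y. The log2 ratio of Eif2s3x to Eif2s3y was 0.87, 0.80 and 0.92 in WT and 1.01, 1.05 and 0.97 in TG mice, a difference of 0.15 (standard error 0.04, two-sided exact permutation test, P = 0.1, adjusted P = 0.54 over the 9 pairs). The 2 genes code for nearly the same protein, and the share of their reads that aligned to both is not known from these counts. Over the 9 pairs the adjusted P value was at least 0.54, and no pair could have passed, since P = 0.1 is the smallest value the exact test allows. The log2 ratio of Eif4a1 to Eif4a2 was -1.27, -1.08 and -1.11 in WT and -1.23, -1.26 and -1.27 in TG mice, where WT replicate 1 stood with the TG mice. That of Eif5a to Eif5a2 was 1.88, 1.69 and 1.68 in WT and 1.71, 1.54 and 1.58 in TG mice, with WT replicate 1 the highest. The log2 ratio of Eef1a1 to Eef1a2 differed by -0.01 (standard error 0.06) between the genotypes, and that of Eif1a to Eif1ax by 0.04 (standard error 0.03).

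**Figure D5:**
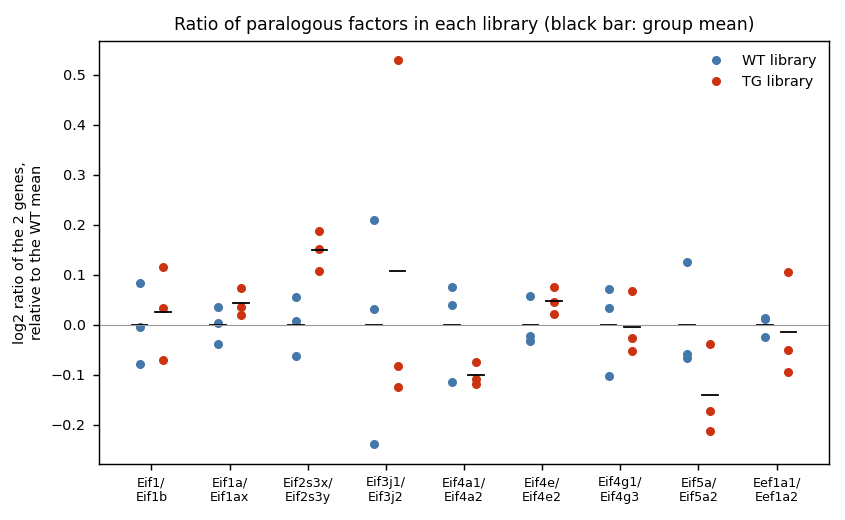
Log2 ratio of the 2 genes of each paralogous pair in every library, after the mean of the WT libraries is subtracted, for WT (blue) and TG (red) mice, with the group means as black bars. The TG points lie above the WT points for Eif2s3x and Eif2s3y, and in the other 8 pairs the points overlap.

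As levels per kb of exon, Eef1a1 exceeded Eef1a2 by 1.94-fold, Eif4a2 exceeded Eif4a1 by 1.87-fold, Eif5a exceeded Eif5a2 by 6.79-fold and Eif1 exceeded Eif1b by 2.89-fold. The X-linked Eif1ax exceeded Eif1a by 3.35-fold. The order within a pair was the same with the length of the principal transcript in 7 of the 9 pairs. It turned for Eif2s3x against Eif2s3y and for Eif4e against Eif4e2, so no order is given for these.

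The TOP list was written from general knowledge and rests on no cited source. Its 9 members (Eef1a1, Eef1b2, Eef1d, Eef1g, Eef2, Eif3e, Eif3f, Eif3h and Eif4b) had a median log2 fold change of -0.03, with 4 higher and 5 lower in TG mice, and the 53 other members one of 0.03, with 34 higher and 19 lower. Eef2 was the 1 TOP member in which the groups were apart. In the libraries, the median log2 ratio of the TOP members to the WT mean was 0.05, 0.000739 and -0.05 in WT replicates 1, 2 and 3 and -0.02, -0.00153 and -0.03 in TG replicates 1, 2 and 3. The WT mice alone thus spanned a wider range than the TG mice, which lay inside it. WT replicate 1 held the highest WT value in 34 of all 62 members (54.8%), while it did so in 34.7% of all genes tested.

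Beyond the members, 36 genes of the same pathway were looked at. Of these, 1 had an unadjusted P value under 0.05, a smaller share than the 4.31% of all genes tested, and 0 passed after adjustment over all genes tested. The 1 gene was Abce1, which recycles ribosomes after termination. Abce1 had 2605, 2664 and 2709.6 in WT and 2832, 2828 and 2908 in TG mice, which is 0.10 higher on the log2 scale (SE 0.04, adjusted P = 0.971 by limma). The groups were apart in 9 of the 36 genes, 7 of them higher in TG mice, against 10.1% and 5.06% of all genes tested. Among the 4 termination and recycling genes they were apart in 3, all higher in TG mice, with log2 fold changes of the 4 between 0.05 and 0.10, and 0 passed after adjustment. The 8 regulators of eIF4E and eIF4A ranged from -0.07 (Mknk2, a kinase of eIF4E) to 0.16 (Eif4ebp1, an inhibitor of eIF4E, standard error 0.20), and the 5 poly(A)-binding proteins and their partners from -0.06 (Pabpc4) to 0.07 (Paip2b). Of the 9 mitochondrial translation factors 8 were higher, with a median of 0.07, and of the 8 enzymes that modify eIF5A and eEF2 5 were lower, with a median of -0.06. The phosphatase subunits that reverse eIF2 alpha phosphorylation were at -0.05 (Ppp1r15a) and 0.06 (Ppp1r15b).

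Without TG replicate 1, the library with the most choroid plexus RNA, the median log2 fold change of the members was 0.02 and 0 members had an unadjusted P value under 0.05. Single members moved, such as Eif2a from -0.02 to 0.05 and Eif5a from -0.07 to -0.12. The groups were apart in 17 members (27.4%), against 25.6% of all genes tested. TG replicate 2, which stayed in, also had a higher choroid plexus sum (1885) than any WT mouse (at most 900.3). The parts of the choroid plexus, medium spiny neuron, cortical neuron and microglial markers in the values of the members were not tested.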

How the data were processed

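Striatal RNA of each mouse was made into a library with the TruSeq RNA Sample Prep Kit v2 and sequenced as 101-bp paired-end reads. Per the labels and the study's methods, reads passed through Trimmomatic 0.35 and TopHat2 2.1.0 (build GRCm38), HTSeq tallied them by gene, and DESeq2 size factors scaled the tallies. The deposited values, made by the authors, are this normalized signal per gene. The annotation release and the strand setting are not given in the sources used here. The smallest nonzero value of a library is worth 1 read, and dividing by it turned 100% of the values into whole numbers (tolerance 0.01). Total counts ran from 27689589 to 36647626 per library. Symbols and exon lengths came from GENCODE M21, matched by Ensembl identifier.

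Genotypes were compared with limma 3.58.1 (mean-variance trend) on log2(value + 1). The 17605 genes averaging 10 or more entered the fit, which gave the 95% intervals, and P values were adjusted over all of them by the Benjamini-Hochberg method. Alternatives were edgeR 4.0.16, DESeq2 1.42.0 and limma-voom on recovered reads, TMM scaling, library totals, an unfiltered table, a minimum mean of 50, other pseudocounts (0.5 and 5), the replicate number as a block and each library left out. Ratios of paralogues and shares of counts were compared by exact permutation tests (scipy 1.17.1). The members, role lists and pathway lists were chosen with earlier results of these data known. The rule for named members took the highest and lowest of each role, the paralogue pairs, the 5 most abundant per length and those on the study's lists. Members without overlap, and the few others given with values, were named after their values were seen.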

Additional observations from a re-analysis of the deposited data

How the results depend on the processing

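At an adjusted P value under 0.05, 0 members were called under each of the 16 alternatives. At an unadjusted P value under 0.05 the count was 0 under TMM scaling, an unfiltered table, a minimum mean of 50, other pseudocounts (0.5 and 5), edgeR, DESeq2 and limma-voom. It was 1 with library totals and 1 with the replicate number as a block (Eif1a in both, adjusted P = 0.964 and adjusted P = 0.853 by limma), and between 0 and 2 with each library left out. Eif1a passed without TG replicate 2 and without WT replicate 1, Eif4a2 without WT replicate 1, and Eef2kmt and Eif2s3y without WT replicate 3. The median log2 fold change ran from 0.00263 to 0.0303 with 1 library left out, the lowest when TG replicate 3 was the one missing. The members without overlap, 9 (14.5%) in all libraries, numbered between 12 (19.4%) and 17 (27.4%) with 1 library left out. There were 17 without TG replicate 1, WT replicate 1 or WT replicate 3, where 25.6%, 20.1% and 18.5% of all genes tested were apart. Without TG replicate 2 there were 16 (25.8%, against 21.2% of all genes tested), and without WT replicate 2 there were 13 (21.0%, against 19.6%). Without TG replicate 3 there were 12, against 17.0% of all genes tested. Fewer values make overlap rarer, and of all genes tested between 17.0% and 25.6% were apart in these settings, against 10.1% in all libraries. Of the 9 paralogue pairs, 0 passed with pseudocounts of 0.5 and 5 or with 1 library left out, but the exact test cannot go below 0.1 with all libraries or 0.2 with 1 left out, so these counts were fixed by the design. The labels do not say whether mice with the same replicate number have anything in common. Deviations from the group means had correlations of 0.05, 0.02 and 0.09 between same-numbered mice. Between TG and WT mice with different numbers the correlations ran from -0.12 to 0.08. Whether the numbers carry a shared factor was not tested. The sign of 12 of the 38 members named by rule changed in at least 1 alternative, in 20 of 607 comparisons, and 19 of these left out a library. For genes with few reads, such as Eif3j2, depth limits what could be seen.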
